A study of Mus musculus with 4 samples.

Results

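The transcripts of 10 genes of alternative macrophage activation and of the chitinase-like proteins were followed in peritoneal macrophages of mice with and without a myeloid deletion of Dnmt1, the maintenance DNA methyltransferase. The genes were Il4ra, Arg1, Chil1, Chil3, Retnla, Mrc1, Clec10a, Mgl2, Clec7a and Pdcd1lg2. They were chosen by name, as known markers and receptors of this activation state, with earlier results of these data known. Chil1 was in addition selected on the large differences between its single samples, so its values are given as a description without a test. Whether values played a part in the choice of the other 9 is not stated. All 10 were among the 13834 genes listed in the count table, and all 10 passed the filter on low counts that 12542 genes passed.

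RNA sequencing covered 2 Dnmt1fl/fl (genotype entry wt in the labels) and 2 Dnmt1KO samples. Both genotypes carried the floxed Dnmt1 allele, and the Dnmt1KO mice in addition expressed Cre recombinase from the LysM promoter, which is active in macrophages and neutrophils alike. Mice were 10 weeks old and received thioglycolate broth in the peritoneum 3 days before the cells were washed out, and the sequenced cells had no LPS or cytokine named in their labels, whose treatment entry reads only as isolated cells. Their sex, and whether a sample was a single mouse or a pool, are not given in the sources used here, so p-values measure only the spread between these samples, which may be technical.

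Alternative activation is the state that macrophages take under interleukin-4 and interleukin-13, which act through receptors containing the interleukin-4 receptor alpha chain and through the transcription factor STAT6. In mice it is recognised by arginase 1, the chitinase-like protein Ym1, the resistin-like secreted protein RELM alpha and a set of carbohydrate-binding receptors on the cell surface. Chitinase-like proteins keep the fold of a chitinase but lack its enzyme activity, and peritoneal macrophages are a classical setting in which all of these products have been studied.

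Dnmt1 methylates cytosine in CG dinucleotides, so CG were counted in the 300-base window from 250 bases before to 50 bases after the RefSeq transcription start (GRCm38.p6). The windows of Chil1, Chil3, Retnla and Il4ra are shown, and no window was available for Arg1 and Clec10a. In the sequences below, written 5′ to 3′ on the strand of the gene, capitals mark each CG. The Chil1 window is chr1:134181906-134182205 (plus strand), the Chil3 window chr3:106167515-106167814 (minus strand), the Retnla window chr16:48842359-48842658 (plus strand) and the Il4ra window chr7:125552021-125552320 (plus strand).
Chil1: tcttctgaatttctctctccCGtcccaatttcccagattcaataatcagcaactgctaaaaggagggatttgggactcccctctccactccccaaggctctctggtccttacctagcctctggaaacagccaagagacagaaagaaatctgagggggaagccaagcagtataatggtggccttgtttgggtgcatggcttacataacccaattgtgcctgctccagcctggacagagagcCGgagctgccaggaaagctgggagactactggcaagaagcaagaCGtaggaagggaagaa
Chil3: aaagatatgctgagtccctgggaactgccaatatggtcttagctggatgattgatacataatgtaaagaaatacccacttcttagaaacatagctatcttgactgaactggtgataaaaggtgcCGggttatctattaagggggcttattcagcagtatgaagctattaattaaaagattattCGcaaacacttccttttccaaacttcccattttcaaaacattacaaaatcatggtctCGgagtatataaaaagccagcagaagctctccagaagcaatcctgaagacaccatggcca
Retnla: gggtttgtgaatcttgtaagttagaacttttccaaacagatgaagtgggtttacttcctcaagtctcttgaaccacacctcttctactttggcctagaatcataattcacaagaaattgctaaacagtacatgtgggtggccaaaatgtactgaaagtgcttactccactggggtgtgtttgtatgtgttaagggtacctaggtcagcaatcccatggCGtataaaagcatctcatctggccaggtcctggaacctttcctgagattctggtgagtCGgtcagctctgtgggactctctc
Il4ra: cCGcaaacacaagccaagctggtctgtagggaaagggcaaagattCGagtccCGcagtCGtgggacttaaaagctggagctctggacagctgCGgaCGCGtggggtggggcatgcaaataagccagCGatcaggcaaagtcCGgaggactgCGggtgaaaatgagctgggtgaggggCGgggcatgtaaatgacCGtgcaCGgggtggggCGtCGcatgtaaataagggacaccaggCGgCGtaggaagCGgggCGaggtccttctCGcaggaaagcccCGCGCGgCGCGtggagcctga

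The Il4ra window held 25 CG, with an observed over expected CG ratio of 0.935, and 81.6% of the 27025 genes with a window had fewer. The other 7 members with a window held between 2 and 8 CG, against a median of 7 over all genes. Chil1, Chil3, Mrc1 and Pdcd1lg2 held 3 each, Retnla held 2, Clec7a held 5 and Mgl2 held 8. Il4ra therefore stood apart from the other 7 in CG content. Methylation itself was not measured.

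The windows were also searched for the spaced palindromes TTCNNNGAA and TTCNNNNGAA, the letters that STAT proteins and STAT6 in particular are known to bind, which read the same on both strands. The first was found in the window of Chil3, and in 8.47% of all windows. The second was found in the windows of Retnla, Clec7a and Pdcd1lg2, and in 6.99% of all windows. The matches overlapped no other match of either motif. Each is shown with 10 bases on either side and the motif in capitals, from chr3:106167718-106167746 (minus strand), chr16:48842454-48842483 (plus strand), chr6:129472891-129472920 (minus strand) and chr19:29410827-29410856 (plus strand), at 172, 145, 131 and 82 bases before the start. A match describes letters in these windows only.
Chil3: aaatacccacTTCTTAGAAacatagctat
Retnla: agaatcataaTTCACAAGAAattgctaaac
Clec7a: catttcagttTTCTTCAGAAgttacagcct
Pdcd1lg2: catgctccagTTCCTCAGAAaccattctgg

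The libraries held between 20228071 and 24198943 counts. Dnmt1, the deleted gene, was at 86.6 and 67.0 CPM (read counts scaled to the library total and its TMM factor) in Dnmt1fl/fl and at 37.0 and 42.7 CPM in Dnmt1KO, a log2 fold change of -0.95 (SE 0.24) with an edgeR quasi-likelihood adjusted p of 1.00 (Benjamini-Hochberg) and an unadjusted p of 0.00839. Dnmt1KO replicate 1 stood apart from the other libraries. It had the highest value of the 4 samples in 38.8% and the lowest in 39.6% of the 12542 genes, its TMM factor was 0.910 against 1.02 to 1.04 in the others, and the median distance between the Dnmt1KO replicates was 0.481 on the log2 scale against 0.207 between the Dnmt1fl/fl replicates. All 8 macrophage markers examined were present, at a summed 35511 and 34589 CPM in Dnmt1fl/fl and 17906 and 21485 CPM in Dnmt1KO. Most of that sum was Lyz2, the locus that carries Cre in LysM-Cre mice, at 29531 and 28588 against 11351 and 15745 CPM. The other 7 markers summed to 5980 and 6002 CPM in Dnmt1fl/fl and 6555 and 5741 CPM in Dnmt1KO, so the lower sums in Dnmt1KO came from Lyz2. Among the lists of other cell types, Dnmt1KO replicate 1 had the highest sum for neutrophils and for mesothelial cells and fibroblasts and the lowest for B cells and eosinophils. The 3 eosinophil markers in the table did not share a direction. Siglecf was highest in that sample (5.60 CPM), and Ccr3 (1.87 CPM) and Il5ra (0.202 CPM, from 4 counts) were lowest. The neutrophil list had 8 of 10 markers in the table and sums of 195 and 262 CPM in Dnmt1fl/fl and 763 and 194 CPM in Dnmt1KO. Csf3r, at 158 and 137 against 169 and 159 CPM, varied little and was most of each sum except that of Dnmt1KO replicate 1. The sums therefore understate the differences in the other markers. The defining neutrophil marker Ly6g was at 0.0487, 0.319, 3.99 and 0.0424 CPM in the same order. Camp and Ngp were not among the genes of the table, which lists only genes above 0 in all 4 samples. In a bulk sample, fewer cells of a type and less RNA per cell cannot be told apart.

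No difference between the genotypes was detected in any of the 9 members other than Chil1. No adjusted p was under 0.05, against 0% of all genes (0 of 12542), and no unadjusted p was under 0.05, against 0.279% of all genes (35 of 12542), with unadjusted values from 0.129 to 0.994. DESeq2 called 1 gene and limma-voom 0 among all genes. In 2 members, Il4ra and Pdcd1lg2, both Dnmt1KO samples lay above both Dnmt1fl/fl samples, a pattern met by 8.14% of all genes tested. In 0 members both lay below, against 8.56% of all genes, and the genotypes overlapped in the other 8. The fitted log2 fold change was positive for 8 of the 9 members other than Chil1. With Chil1 counted in, it was positive for 9 of the 10, for 6 when libraries were scaled by their totals alone and for 4 without Dnmt1KO replicate 1. Its median was 0.19, or 0.14 without Chil1, against 0.0046 over all genes.

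In 7 of the 9 members other than Chil1 the distance between the replicates of at least one genotype exceeded the fitted difference between the genotypes, as it did in 91.5% of all genes tested. The range over the 4 samples was above 1 on the log2 scale in 5 of the 9 members other than Chil1, against 24% of all genes (3005 genes), with a median of 1.15 against 0.617. Chil1, which was selected on its differences between samples, is left out of these counts. Dnmt1KO replicate 1 had the highest value of 3 of the 9 members and the lowest of 2, against 38.8% and 39.6% of all genes.

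**Figure D1:**
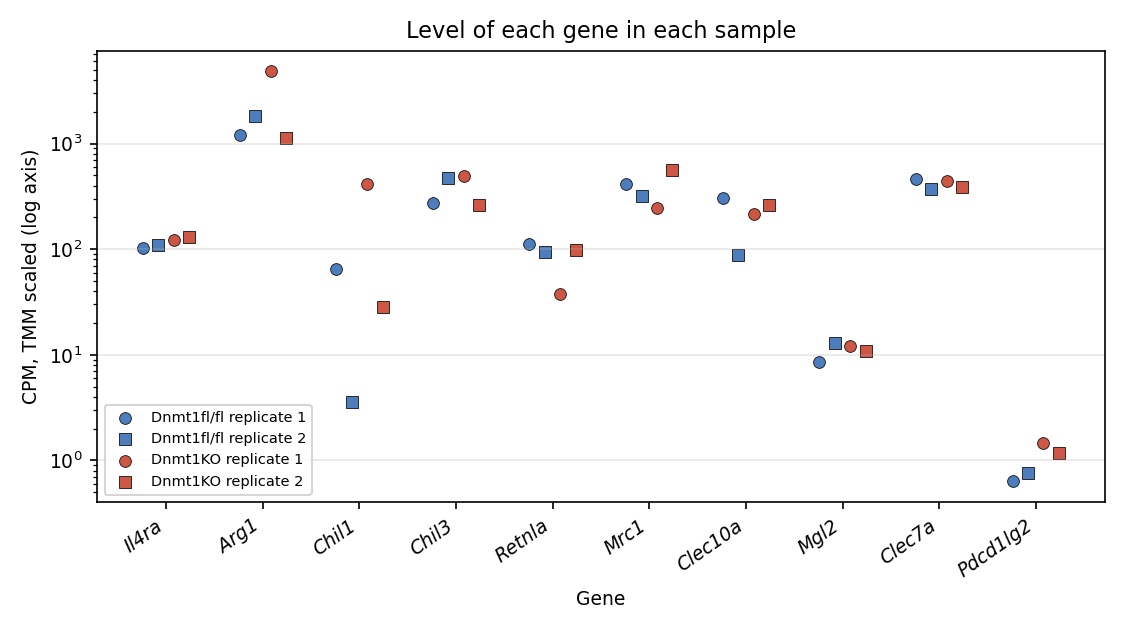
Level of each of the 10 genes in CPM (log axis) in the 4 samples, one point per sample, with Dnmt1fl/fl in blue, Dnmt1KO in red, circles for replicate 1 and squares for replicate 2. The Dnmt1KO points lie above the Dnmt1fl/fl points for Il4ra and Pdcd1lg2, and the points of the genotypes overlap for the other 8 genes.

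Per length of merged exons, Arg1 was the most abundant transcript, with a mean level of 1012 CPM per kb, followed by Chil3 at 230, Clec7a at 157, Retnla at 143, Clec10a at 75.4, Mrc1 at 60.8, Chil1 at 45.3, Il4ra at 19.3, Mgl2 at 5.31 and Pdcd1lg2 at 0.515 CPM per kb. Without Dnmt1KO replicate 1 the mean was 624 CPM per kb for Arg1 and 11.6 for Chil1, which then lay below Il4ra at 19.0, and Retnla at 169.5 lay above Clec7a at 154. The samples of neighbours in this order overlapped from Chil3 down to Il4ra. Arg1 lay above Chil3 in every sample, Mgl2 below Il4ra, and Pdcd1lg2 below Mgl2. Lengths came from GENCODE M21, and the annotation the authors counted on is not given in the sources used here.

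Il4ra (chromosome 7, 125552120 to 125579474, plus strand, GRCm38) encodes the signalling chain shared by the interleukin-4 and interleukin-13 receptors. It was at 103 and 110 CPM in the Dnmt1fl/fl samples and at 122 and 130 CPM in the Dnmt1KO samples. The genotypes did not overlap, and this was among the narrowest spreads of the group, with a range of 0.34 on the log2 scale. The means were 106 ± 5.43 CPM and 126 ± 5.82 CPM (SD, n = 2 each), and the log2 fold change of 0.24 (SE 0.21) had an edgeR adjusted p of 1.00 and an unadjusted p of 0.300.

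Of the 13 genes listed for interleukin-4 receptor and STAT6 signalling, 12 were tested and 0 were called in either direction, with a median log2 fold change of -0.073. Among those other than Il4ra, the highest fold change was that of Socs1, an inhibitor of cytokine receptor signalling, at 1.22 and 1.79 CPM in Dnmt1fl/fl and 1.77 and 1.78 CPM in Dnmt1KO (log2 fold change 0.23). The lowest was that of Cish, another inhibitor of the same family, at 1.17 and 1.71 against 0.909 and 1.27 CPM (log2 fold change -0.40). Apart from Il4ra, the genotypes did not overlap in Jak2, a receptor-associated kinase that was lower in Dnmt1KO (75.0 and 79.9 against 60.2 and 73.5 CPM). That was 1 of the 12 higher and 1 lower, against 8.14% and 8.56% of all genes tested. Irs1 was not among the genes of the table.

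Arg1 (chromosome 10, 24915221 to 24927484, minus strand) encodes the enzyme that splits arginine into ornithine and urea. It was at 1208 and 1830 CPM in the Dnmt1fl/fl samples and at 4849 and 1132 CPM in the Dnmt1KO samples. The highest and the lowest sample were therefore the replicates of one genotype, 4.29-fold apart, and 95.3% of all genes had a smaller range. The share of all counts taken by this gene was 0.123%, 0.190%, 0.441% and 0.118% in the same order. The means were 1519 ± 440 and 2990 ± 2629 CPM (SD, n = 2 each), with a log2 fold change of 0.98 (SE 0.68), an edgeR adjusted p of 1.00 and an unadjusted p of 0.203. Without Dnmt1KO replicate 1 the log2 fold change was -0.43. Without Dnmt1KO replicate 2 it was 1.67, with an edgeR adjusted p of 0.0215 in a fit that assumed the lone Dnmt1KO sample to vary like the others and that called 674 genes, or 5.37% of those tested.

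Arg2, the mitochondrial arginase, was far lower, at 1.56 and 7.06 CPM in Dnmt1fl/fl and 9.69 and 1.53 CPM in Dnmt1KO, with the same library highest. The count of Arg1 per count of Arg2 was 775, 259, 500 and 742. Of the 15 genes listed for arginine and polyamine enzymes, 14 were tested and 0 were called, with a median log2 fold change of 0.17, which was -0.24 without Dnmt1KO replicate 1 and 0.39 without Dnmt1KO replicate 2. Arg2 had the highest fold change among those other than Arg1 (log2 fold change 0.37), and the lowest was that of Slc7a1, a carrier of cationic amino acids, at 13.1 and 12.2 against 11.1 and 10.6 CPM (log2 fold change -0.22). The genotypes did not overlap in Slc7a1 (lower in Dnmt1KO), nor in Glul, the glutamine synthetase gene (436 and 456 against 553 and 529 CPM), and Sat1, which acetylates polyamines (509 and 513 against 576 and 525 CPM), which were higher. These were 1 of the 14 lower and 2 higher, against 8.56% and 8.14% of all genes tested. Nos2, whose enzyme uses the same substrate in classically activated macrophages, was not among the genes of the table.

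Chil1 (chromosome 1, 134182176 to 134190181, plus strand) encodes a secreted chitinase-like glycoprotein, also known as BRP-39, which is made by macrophages and by neutrophils. It was at 65.6 and 3.55 CPM in the Dnmt1fl/fl samples and at 411 and 28.1 CPM in the Dnmt1KO samples, from 1346, 89, 8131 and 663 counts. The lowest and the highest sample were 116-fold apart, and the samples of the genotypes interleaved. The replicates of Dnmt1fl/fl differed by 4.19 on the log2 scale and those of Dnmt1KO by 3.87. The range of 6.84 was the second widest of the 12542 genes, after Ppfia4 at 7.63 and before Stfa2l1 at 6.27 and S100a9 at 5.84. Chil1 was selected on these differences, so nothing is read from this rank. The means were 34.6 ± 43.9 and 219 ± 270 CPM (SD, n = 2 each), and the SD exceeded the mean in both genotypes. The log2 fold change of 2.67 moved between -0.29 without Dnmt1KO replicate 1 and 5.95 without Dnmt1fl/fl replicate 1.

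The order of the samples in Chil1 was Dnmt1KO replicate 1, Dnmt1fl/fl replicate 1, Dnmt1KO replicate 2 and Dnmt1fl/fl replicate 2. The neutrophil marker S100a9 was at 5.55, 60.5, 320 and 8.35 CPM and the granule protein gene Ltf at 0.487, 0.478, 2.98 and 0.424 CPM in Dnmt1fl/fl replicates 1 and 2 and Dnmt1KO replicates 1 and 2. All 8 neutrophil markers in the table were highest in Dnmt1KO replicate 1, the sample with the highest Chil1. The second highest sample was Dnmt1fl/fl replicate 1, as for Chil1, in 3 of them, Dnmt1fl/fl replicate 2, the sample with the lowest Chil1, in 4, and Dnmt1KO replicate 2 in 1. The full order of Chil1 was met by 1 of the 8, the collagenase gene Mmp8, at 12.9, 8.69, 26.3 and 8.90 CPM. Several of these orders rest on near ties. Mmp8 was at 8.69 and 8.90 CPM from 218 and 210 counts. Ltf was at 0.487 and 0.478 CPM from 10 and 12 counts, and Csf3r at 158.3 and 158.5 CPM in Dnmt1fl/fl replicate 1 and Dnmt1KO replicate 2. The part of neutrophil RNA in the Chil1 values was not tested.

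**Figure D2:**
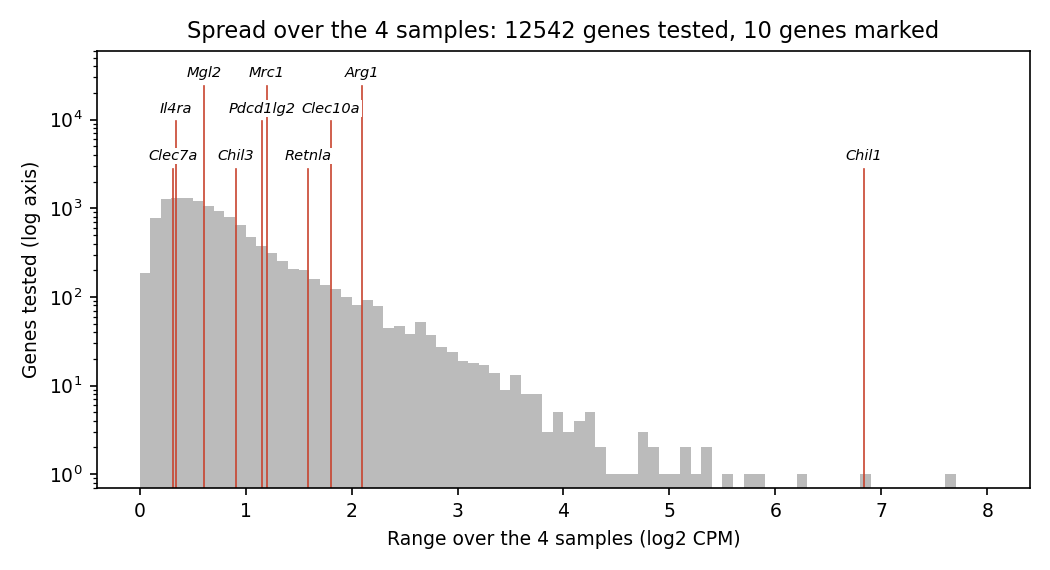
Distribution over all tested genes of the range of the 4 samples (highest minus lowest log2 CPM, horizontal axis) with the number of genes on the vertical axis (log axis), and vertical lines at the 10 named genes. Chil1 lies at 6.84, near the right end, Arg1 follows at 2.10, and the narrowest are Clec7a at 0.32 and Il4ra at 0.34.

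Chil3 (chromosome 3, 106147554 to 106167564, minus strand) encodes Ym1, the secreted chitinase-like lectin of mouse macrophages that is also made by neutrophil precursors. It was at 273 and 475 CPM in the Dnmt1fl/fl samples and at 493 and 263 CPM in the Dnmt1KO samples. Each genotype had 1 higher and 1 lower sample, and the genotype means were close, at 374 ± 143 and 378 ± 163 CPM (SD, n = 2 each). The log2 fold change was 0.015 (SE 0.42), with an edgeR adjusted p of 1.00 and an unadjusted p of 0.972, and it was -0.090 with library totals alone. With an SE of this size, the test does not show that the genotypes had equal levels. The count of Chil3 per count of Chil1 was 4.16 and 134 in Dnmt1fl/fl and 1.20 and 9.35 in Dnmt1KO, a description that carries the Chil1 differences used in its selection.

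Of the 100-base stretches of the Chil3 transcripts, 4.93% were also found in Chil4, which lies 33925 bases away, so reads of these stretches could be divided between them. Of 7 chitinase family genes, 4 were in the table, and 0 of those other than Chil1, which was not tested, were called. The median log2 fold change of the 4, Chil1 included as a description, was 0.049. Besides Chil1 and Chil3 these were Chid1, a chitinase-domain protein, at 35.8 and 33.0 against 38.9 and 34 CPM, and Ctbs, the lysosomal chitobiase, at 39.1 and 38.4 against 37.6 and 39.3 CPM. These family members varied little, with log2 fold changes of 0.083 and -0.012. Chil4, Chia1 and the true chitinase gene Chit1 were not among the genes of the table.

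Retnla (chromosome 16, 48842551 to 48844461, plus strand) encodes RELM alpha, a secreted protein induced by interleukin-4. It was at 113 and 93.8 CPM in the Dnmt1fl/fl samples and at 37.5 and 97.8 CPM in the Dnmt1KO samples. Only Dnmt1KO replicate 1 was low, and the other Dnmt1KO sample lay between the Dnmt1fl/fl samples. The means were 103 ± 13.6 and 67.6 ± 42.6 CPM (SD, n = 2 each), with a log2 fold change of -0.61 (SE 0.46), an edgeR adjusted p of 1.00 and an unadjusted p of 0.236. Without Dnmt1KO replicate 1 the log2 fold change was -0.084, and without Dnmt1KO replicate 2 it was -1.46, with an edgeR adjusted p of 0.0156 in the same fit that called 5.37% of genes.

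In Dnmt1KO replicate 1, Retnla was therefore at its lowest where Arg1 was at its highest, and the count of Arg1 per count of Retnla was 10.7 and 19.5 in Dnmt1fl/fl and 129 and 11.6 in Dnmt1KO. These widely used markers of one activation state lay at opposite ends of their ranges in that library. Retnlg, a resistin family gene known from neutrophils, was at 7.89 and 6.22 CPM in Dnmt1fl/fl and 40.6 and 5.93 CPM in Dnmt1KO, with a log2 fold change of 1.72 (SE 0.84) and an unadjusted p of 0.0898. Of the 4 resistin family genes, Retnla and Retnlg were the 2 tested and 0 were called, with a median log2 fold change of 0.55 that was -0.17 without Dnmt1KO replicate 1, and Retn and Retnlb were not among the genes of the table.

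**Figure D3:**
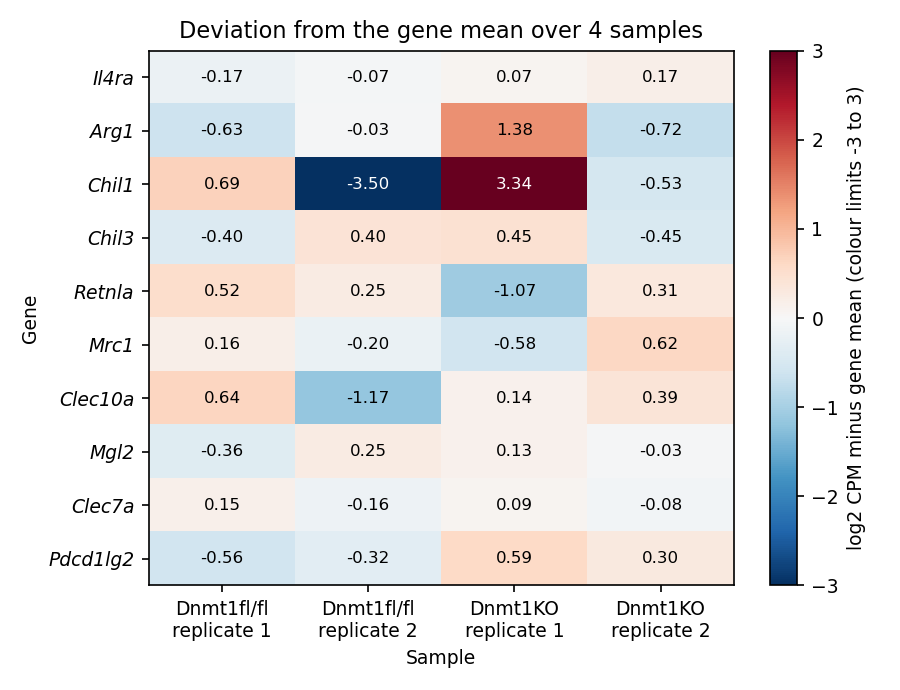
Deviation of each sample from the gene's own mean (log2 CPM) for the 10 genes, one coloured cell per gene and sample, with the value written in each cell. Dnmt1KO replicate 1 is at 1.38 for Arg1 and 3.34 for Chil1 but at -1.07 for Retnla, while Dnmt1fl/fl replicate 2 is at -3.50 for Chil1 and -1.17 for Clec10a.

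Mrc1 (chromosome 2, 14229392 to 14332057, plus strand) encodes the mannose receptor CD206, an endocytic lectin. It was at 414 and 322 CPM in the Dnmt1fl/fl samples and at 246 and 566 CPM in the Dnmt1KO samples, which enclosed the Dnmt1fl/fl samples from both sides. The means were 368 ± 64.7 and 406 ± 226 CPM (SD, n = 2 each), with a log2 fold change of 0.14 (SE 0.43), an edgeR adjusted p of 1.00 and an unadjusted p of 0.752. Mrc1 and Retnla shared their lowest sample, Dnmt1KO replicate 1, but not their highest.

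Clec10a (chromosome 11, 70156197 to 70170834, plus strand) and Mgl2 (chromosome 11, 70130329 to 70137550, plus strand) encode the galactose-type lectins CD301a and CD301b and lie 18646 bases apart. Clec10a was at 308 and 88.1 CPM in the Dnmt1fl/fl samples and at 218 and 260 CPM in the Dnmt1KO samples. Here Dnmt1fl/fl replicate 2 was the sample apart, from 2210 counts against 4311 to 6324 in the others. The means were 198 ± 156 and 239 ± 29.9 CPM (SD, n = 2 each), with a log2 fold change of 0.27 (SE 0.57), an edgeR adjusted p of 1.00 and an unadjusted p of 0.653, and the log2 fold change was -0.36 without Dnmt1fl/fl replicate 2 and 1.44 without Dnmt1fl/fl replicate 1.

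Mgl2 did not have this pattern. It was at 8.57 and 13.1 CPM in the Dnmt1fl/fl samples and at 12.1 and 10.8 CPM in the Dnmt1KO samples, with Dnmt1fl/fl replicate 2 the highest of the 4. The means were 10.8 ± 3.18 and 11.4 ± 0.923 CPM (SD, n = 2 each), with a log2 fold change of 0.075 (SE 0.32), an edgeR adjusted p of 1.00 and an unadjusted p of 0.821, and -0.0038 with library totals alone. The count of Clec10a per count of Mgl2 was 35.9 and 6.74 in Dnmt1fl/fl and 18 and 24.2 in Dnmt1KO. The neighbouring lectin genes thus kept no fixed ratio. Their transcripts share 3.95% of the 100-base stretches of Mgl2 and 2.64% of those of Clec10a, and deposited values of both genes were not whole numbers. How the authors' counting divided shared reads, and the part of this in the much lower Mgl2 values, was not tested.

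Clec7a (chromosome 6, 129461591 to 129472779, minus strand, listed in GENCODE M21 as a polymorphic pseudogene) encodes Dectin-1, the receptor for beta-glucan of fungal cell walls. It was at 459 and 368 CPM in the Dnmt1fl/fl samples and at 438 and 389 CPM in the Dnmt1KO samples, the narrowest range of the 10 at 0.32 on the log2 scale. The means were 413 ± 64.1 and 414 ± 34.7 CPM (SD, n = 2 each), with a log2 fold change of 0.0020 (SE 0.24), an edgeR adjusted p of 1.00 and an unadjusted p of 0.994, and -0.073 with library totals alone. Of the 11 genes listed for Dectin-1 signalling, 10 were tested and 0 were called, with a median log2 fold change of -0.032, and Tspan6 was not among the genes of the table. Apart from Clec7a, the highest fold change in that list was that of Vav1, a guanine nucleotide exchange factor, at 128 and 120 against 152 and 121 CPM (log2 fold change 0.14). The lowest was that of Malt1, a protease of the CARD9 pathway, at 108 and 92.1 against 56.0 and 81.3 CPM (log2 fold change -0.54, unadjusted p 0.0952), with both Dnmt1KO samples below both Dnmt1fl/fl samples. The same held for Prkcd, a protein kinase of the pathway, at 434 and 445 against 400.5 and 425 CPM. These were 2 of the 10 tested, against 8.56% of all genes.

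Of the 20 myeloid C-type lectin genes listed, which include Mrc1, Clec10a, Mgl2 and Clec7a, all 20 were tested and 0 were called. None separated the genotypes, against 8.14% of all genes higher and 8.56% lower in Dnmt1KO. The median log2 fold change was 0.11, but 0.025 with library totals alone and 0.021 without Dnmt1KO replicate 1. Clec4n, which encodes Dectin-2, was at 5.46 and 19.1 CPM in Dnmt1fl/fl and 30.0 and 4.49 CPM in Dnmt1KO (log2 fold change 0.48). Clec2d, a ligand of a natural killer cell receptor, was at 73.5 and 77.6 against 31.6 and 79.4 CPM (log2 fold change -0.44). In both genes Dnmt1KO replicate 1 was an end of the range, as it was for most genes tested (highest in 38.8%, lowest in 39.6%).

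Pdcd1lg2 (chromosome 19, 29410919 to 29471161, plus strand) encodes PD-L2, a ligand of the inhibitory receptor PD-1 that interleukin-4 induces in macrophages. It was at 0.633 and 0.757 CPM in the Dnmt1fl/fl samples and at 1.46 and 1.19 CPM in the Dnmt1KO samples. The genotypes did not overlap, and the values rest on 13, 19, 29 and 28 counts, the fewest of the group, where 3 counts, taken as the floor for counting error only, correspond to 0.120 to 0.151 CPM. The means were 0.695 ± 0.0878 and 1.33 ± 0.196 CPM (SD, n = 2 each), with a log2 fold change of 0.92 (SE 0.52), an edgeR adjusted p of 1.00 and an unadjusted p of 0.129. Leaving out single samples gave log2 fold changes between 0.76 and 1.06.

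The other ligand, Cd274 (PD-L1), was at 68.1 and 56.1 CPM in Dnmt1fl/fl and 62.0 and 57.9 CPM in Dnmt1KO (log2 fold change -0.052). The receptor gene Pdcd1 was at 0.536 and 1.36 against 0.757 and 0.297 CPM (log2 fold change -0.87). These are low values, and Pdcd1 dropped out when at least 10 counts were required in every sample. Of this set of 3 the genotypes did not overlap in Pdcd1lg2 alone, and 0 of the 3 were called. Both Dnmt1KO samples lay above both Dnmt1fl/fl samples in 8.14% of all genes tested.

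**Figure D4:**
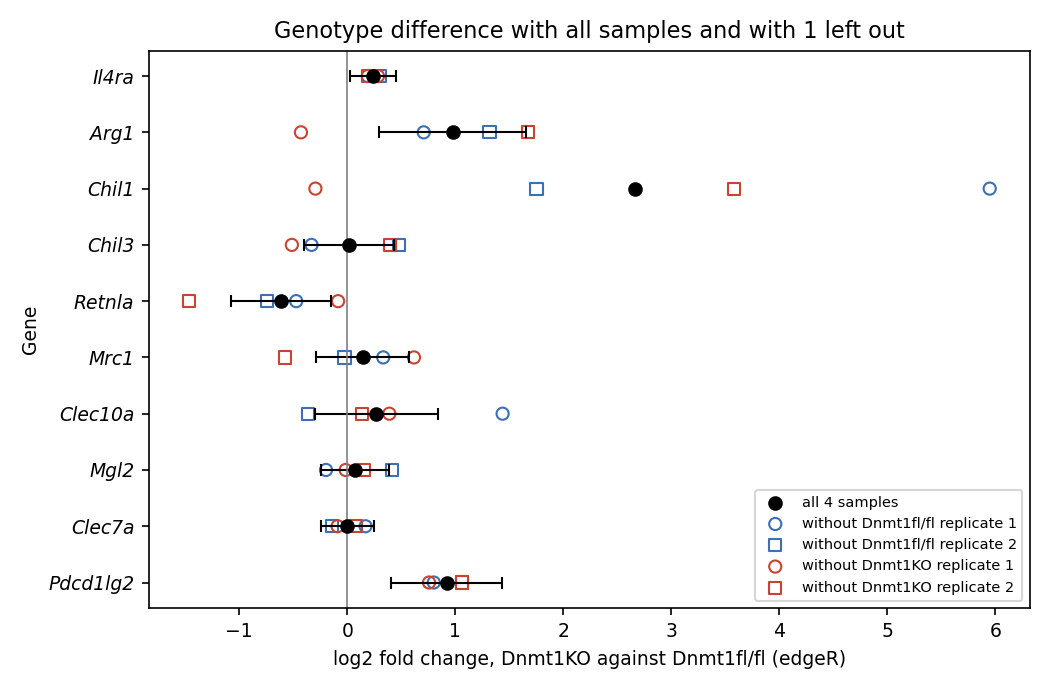
Log2 fold change of Dnmt1KO against Dnmt1fl/fl for the 10 genes (horizontal axis) with the value of the fit on all 4 samples as a black point, its standard error as a bar (none for Chil1, which was not tested), and the values after leaving out each sample in turn as open marks. The marks of Pdcd1lg2, Il4ra and Retnla stay on one side of 0, whereas those of Arg1, Chil1, Chil3, Mrc1, Clec10a, Mgl2 and Clec7a lie on both sides.

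Among 30 other genes of alternative activation, 28 were tested, 0 were called in either direction and the median log2 fold change was -0.079. The genotypes did not overlap in Tfec (higher in Dnmt1KO) and in Myc, Ccl22 and Socs2 (lower). These were 1 and 3 of the 28, against 8.14% higher and 8.56% lower among all genes tested. The highest fold change was that of Ccl24, an eosinophil-attracting chemokine, at 16.7 and 34.1 CPM in Dnmt1fl/fl and 73.3 and 13 CPM in Dnmt1KO (log2 fold change 0.76, unadjusted p 0.377). The order of its samples was that of Arg1. The lowest was that of Socs2, an inhibitor of growth hormone and cytokine signalling, at 1.46 and 1.51 against 0.808 and 0.593 CPM (log2 fold change -1.09, unadjusted p 0.0812). Ccl17 was not among the genes of the table and Il10 did not pass the filter.

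The opposite state was followed with 20 genes of classical activation, of which 15 were tested, 0 were called and the median log2 fold change was -0.13, or 0.22 without Dnmt1fl/fl replicate 2 and -0.41 without Dnmt1fl/fl replicate 1. The highest fold change was that of the chemokine Ccl5, at 10.4 and 20.6 against 21.9 and 14.3 CPM (log2 fold change 0.22). The lowest was that of Cd86, the costimulatory ligand of CD28, at 41.3 and 43.6 against 27.5 and 27.7 CPM (log2 fold change -0.62, SE 0.20, unadjusted p 0.0216, edgeR adjusted p 1.00). The genotypes did not overlap in 3 of the 15, Cd86, Cd80 and Cd40, with both Dnmt1KO samples below both Dnmt1fl/fl samples as in 8.56% of all genes, at 19.2 and 23.6 against 18.9 and 16.7 CPM for Cd80 and 40.8 and 52.9 against 37.5 and 37.5 CPM for Cd40. Nos2, Il6, Cxcl11 and Il23a were not among the genes of the table and Il12b did not pass the filter.

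Over all 9 lists, 97 of 111 genes other than the 10 members were tested and 0 were called. Both Dnmt1KO samples lay above both Dnmt1fl/fl samples in 3 of the 97 (3.09%, against 8.14% of all genes) and below in 10 (10.3%, against 8.56%). Leaving out single samples gave medians of both signs in 7 of the 9 lists, so no direction is read from a list median. The lists were written with earlier results of these data known.

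**Figure D5:**
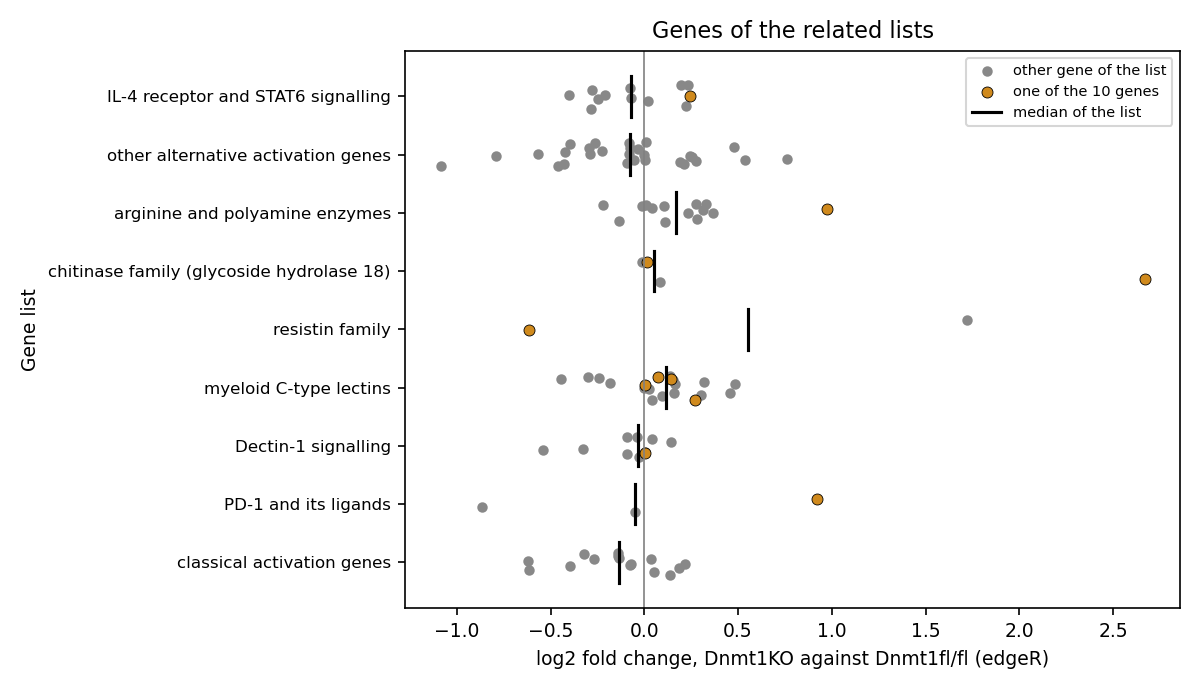
Log2 fold change of Dnmt1KO against Dnmt1fl/fl (horizontal axis) for the genes of the 9 lists that passed the filter, one point per gene, the 10 members in orange and the others in grey, and a black line at the median of each list. Chil1, which was not tested, is drawn as a description and enters the median of the chitinase family. List medians run from -0.13 for classical activation to 0.55 for the resistin family, which rests on 2 genes, and both of these ends change sign when single samples are left out.

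The genes whose pattern over the 4 samples lay nearest were sought for Chil1, Arg1 and Clec10a, the members with the widest ranges, among the 11541 genes with a mean of at least 1 CPM, by the root mean square difference of log2 CPM centred on each gene's mean. For Arg1 they were Mif (0.070), Igfbp6 (0.074), Spp1 (0.098), Acta2 (0.100) and Rsph9 (0.120). Spp1, which encodes osteopontin, was at 2740 and 3770 CPM in Dnmt1fl/fl and 10349 and 2127 CPM in Dnmt1KO, and Mif, the macrophage migration inhibitory factor, at 47.3 and 75.0 against 188 and 49.5 CPM. For Clec10a they were Fbxo44 (0.142), Myom1 (0.154), Bhlhb9 (0.171), Zfyve28 (0.196) and Slc39a8 (0.202). For Chil1 they were Acot1 (1.45), Retnlg (1.64), Angptl4 (1.69), Cdh1 (1.70) and Ltf (1.74), and nothing is read from these larger distances, since Chil1 was selected on its differences between samples and the measure is not scaled to a gene's range. With 4 samples these distances are a description, and they carry no test.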

How the data were processed

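Libraries came from total RNA of 2 Dnmt1fl/fl and 2 Dnmt1KO samples. Per the labels, HISAT2 2.0.5, featureCounts 1.5.0-p3, DESeq2 1.20.0 and the mm10 build were named in the submitters' processing notes. The deposited values are estimated counts per gene that the authors did not normalize. Between 72.6% and 76.4% of the listed values per sample were whole numbers, and how reads matching several genes were divided is not given in the sources used here. A shorter table and the authors' own comparison columns were not used.

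Counts were rounded, filtered with filterByExpr and scaled by TMM under R 4.3.3. The genotype term was tested with the two-sided quasi-likelihood F-test of edgeR 4.0.16 and Benjamini-Hochberg adjustment over 12542 genes. Called means an adjusted p under 0.05. The fit's common dispersion of 0.0837 corresponds to a variation of 28.9% between replicates. Log2 CPM used a prior count of 1. CPM per kb used merged exons of GENCODE M21. The code was tested on simulated data.

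The members, gene lists and marker lists were chosen with earlier results of these data known. Named were the 10 members, Dnmt1, of each list the tested genes with the highest and lowest fold change and those with an unadjusted p under 0.05, the 5 nearest patterns of Chil1 and of the other members with the widest ranges, and cell type markers. Tfec, Myc, Ccl22, Glul, Sat1, Jak2, Prkcd, Cd80, Cd40, Ppfia4 and Stfa2l1 were named after their values were seen, as were genes not in the table. Alternatives were other scalings (median of ratios, library totals alone), DESeq2 1.42.0, limma-voom (limma 3.58.1), no filter, at least 10 counts in every sample, a replicate block, a loess correction for length (span 0.5) and each sample left out. The crossed pairing was chosen after seeing the data.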

Additional observations from a re-analysis of the deposited data

How the results depend on the processing

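The count of genes with an adjusted p under 0.05 was 0, and it was 1 with DESeq2, 0 to 674 when single samples were left out (674 without Dnmt1KO replicate 2), 35 by the unadjusted p and 2094 by groups that did not overlap. Samples with the same number tended to deviate in opposite directions (correlation -0.35 over genes of the deviations from the genotype means). With so few samples this cannot show whether they were collected or processed in pairs. With the replicate block 0 genes were called (34 by the unadjusted p), and with the crossed pairing, chosen after seeing the data, 3 (297 by the unadjusted p). Members with a positive log2 fold change, Chil1 counted in, numbered 9, and 4 to 8 when single samples were left out (4 without Dnmt1KO replicate 1). Of the 9 members other than Chil1, 8 were positive in the fit on all 4 samples. Called list genes numbered 0, and 0 to 8 when single samples were left out (8 without Dnmt1KO replicate 2). With library totals alone Chil3 was at -0.090, Mgl2 at -0.0038 and Clec7a at -0.073. With at least 10 counts Clec7a was at -0.0019, and with limma after removal of the length trend Chil3 was at -0.084 and Clec7a at -0.020. Leaving out single samples gave log2 fold changes from -0.51 to 0.48 for Chil3, -0.20 to 0.42 for Mgl2, -0.58 to 0.62 for Mrc1, -0.36 to 1.44 for Clec10a, -0.14 to 0.17 for Clec7a and -0.43 to 1.67 for Arg1, and for Chil1 from -0.29 to 5.95. Directions thus turned for large values as well as for those near 0. In fits on all 4 samples Arg1 (0.98) was at 0.67 by limma-voom, at 0.66 under the replicate block and at 0.61 by limma after removal of the length trend, Clec10a (0.27) was at 0.52, 0.53 and 0.51, Mrc1 (0.14) at 0.021, 0.032 and 0.12, and the resistin family median (0.55) at 0.17, 0.20 and 0.095. The median of PD-1 and its ligands was -0.052 and, with at least 10 counts, 0.43, where Pdcd1 dropped out and 2 genes were left. The cause of the other changes was not tested. The effect of depth was not tested, and Pdcd1lg2, with 13 to 29 counts, had the fewest counts of the 10 members.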

Other observations

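The lists of other cell types held some that are sources or targets of type 2 cytokines. Of 7 eosinophil markers 3 were in the table, summing to 14.1 and 10.05 CPM in Dnmt1fl/fl and 7.67 and 11.1 CPM in Dnmt1KO, with Epx, Prg2, Prg3 and Ear1 not among its genes. Siglecf was highest in Dnmt1KO replicate 1, and Ccr3 and Il5ra were lowest there. Of 7 mast cell markers 6 were in the table, at 12.7 and 10.8 against 10.3 and 8.94 CPM. The 6 T cell markers summed to 21.7 and 30.5 against 27.2 and 26.9 CPM. These lists were low in every sample.

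The 8 markers of resident large peritoneal macrophages summed to 195 and 268 CPM in Dnmt1fl/fl and 124 and 183 CPM in Dnmt1KO, and the 10 markers of monocyte-derived or small peritoneal macrophages and dendritic cells to 6252 and 4958 against 3400 and 6168 CPM. The 6 B cell markers summed to 318 and 483 against 130 and 525 CPM, and the 8 markers of mesothelial cells and fibroblasts to 32.9 and 48.4 against 93.5 and 22.8 CPM. In these 4 lists Dnmt1KO replicate 1 had the lowest sum, except for mesothelial cells and fibroblasts, where it had the highest, as it was highest for Arg1. Most of the sum for the monocyte-derived list was Cd74, H2-Aa and H2-Ab1, which were lowest in that sample. Ly6c2 (7.80 and 18.7 against 23.3 and 7.46 CPM) and Itgax (81.0 and 66.7 against 92.5 and 58.2 CPM) were highest there, and the other markers of that list were lowest. Their part in the members' values was not tested.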
